A study of Mus musculus with 2 samples.

Results

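Among cells of mouse small intestinal organoids grown in type I collagen, 129 cells had no count of Ly6a and less than 150 CPM of Muc3, where CPM is a gene's count scaled to a total of 1000000. They were 38.4% of the 336 collagen cells and belonged to a series of 1951 cells named for one of 2 cultures. The other 207 collagen cells were 125 cells with Ly6a and Muc3 under 150 CPM, called Ly6a-positive Muc3-low, and 82 cells with Muc3 from 150 CPM upward, called Muc3-high. The class is called Ly6a-negative Muc3-low below. Both cultures were started from crypts of the proximal small intestine of C57BL/6 wild-type mice and were sampled on day 4. Collagen domes held cystic spheres under medium with EGF (50 ng/mL), Noggin (100 ng/mL), R-spondin1 (400 ng/mL), Wnt3a (100 ng/mL), nicotinamide (10 mM) and 1% BSA. Matrigel domes held budding organoids under medium with EGF, Noggin and R-spondin1 at those doses, without the other 3 additions. Collagen domes were opened with collagenase (0.5 mg/mL) and Matrigel domes with a non-enzymatic solution, and cells carried a hashtag for their culture, bound through an EpCAM antibody. Medium, matrix and release of the cells differed together between the cultures.

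In the intestine, Lgr5-expressing crypt stem cells divide continuously and are kept in that state by Wnt signals, which R-spondin strengthens through receptors of the Lgr family. Their daughters become absorptive enterocytes or secretory cells, which include Paneth, goblet and enteroendocrine cells. After injury, and in fetal epithelium, intestinal cells express another set of genes, of which Ly6a, coding for the surface antigen Sca-1, is the best known, with Clu, Anxa1 and S100a6 beside it. Muc3 codes for a membrane-bound mucin of the enterocyte surface.

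All cells came from 1 cDNA library with 1 suspension per culture, so the differences below were not checked in replicates and none was tested. Intervals are exact 95% Poisson intervals for summed counts and exact Clopper-Pearson intervals for shares of cells. They cover counting error only, leave out the spread between cells and between cultures, and would be too narrow if amplified copies entered the counts. Log2 ratios are those of the Ly6a-negative Muc3-low cells over another class, with 1 CPM added to both levels. The class held 15887310 counts and the other collagen cells 26653004. Depth did not separate the class, with a median of 123937 counts per cell (30139 to 254814) against 124650 in the other collagen cells (30746 to 708341). The median number of detected genes was 7952 against 7833, and the median mitochondrial share 3.64% against 3.21%.

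The cells were selected on Ly6a and Muc3, so the levels of both are a description of that choice and support nothing. Every other gene was also read in these same cells, and the classes are described, not tested. The deposited table keeps no low value of Ly6a: the smallest count among the 151 collagen cells with Ly6a was 6, and 15 of these cells had fewer than 10. A zero therefore means fewer than 6 counts, which was worth 23.5 to 199 CPM in the cells of the class (median 48.4 CPM). Muc3 was at 0 in 65 of the 129 cells and at 100 CPM or more in 14. The highest Muc3 levels inside the threshold were 139, 149.6 and 149.7 CPM, and the lowest just outside it, among cells without Ly6a, were 155, 155 and 158 CPM. The threshold cuts a continuous range.

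**Figure D1:**
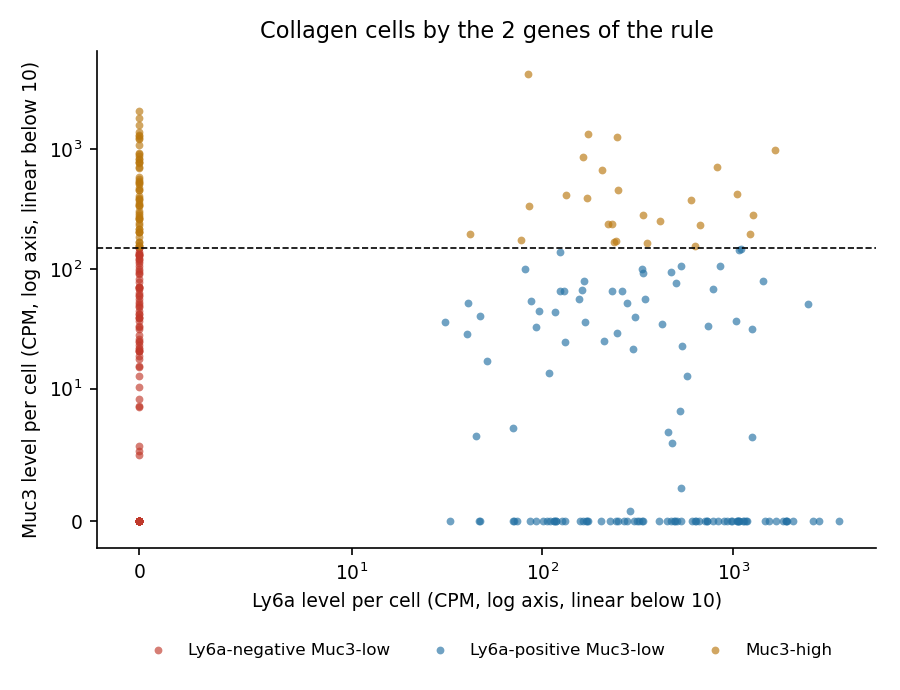
Each point is 1 of 336 collagen cells, by its Ly6a level (x axis) and its Muc3 level (y axis) in CPM, on log axes that are linear below 10. The dashed line marks 150 CPM of Muc3; the 129 Ly6a-negative Muc3-low cells lie in the column at 0 Ly6a below it, and 56 of the 82 Muc3-high cells lie in the same column above it.

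A zero for Ly6a is easier to obtain in a shallow cell, and the class was therefore set against depth. It made up 37.5% of the 112 shallowest collagen cells, 40.2% of the 112 in the middle and 37.5% of the 112 deepest. The marker levels were read within the same depth groups. Lgr5 stood at 79.9 CPM in the class and 25.3 CPM in the other collagen cells among the shallowest, 56.8 and 18.5 CPM in the middle, and 53.6 and 14.3 CPM among the deepest. Smoc2 stood at 118 and 25.9 CPM, 115 and 34.5 CPM, and 121 and 33.2 CPM in the same depth groups. The class was higher for both genes in each depth group. Prom1 had no such constancy, at 269 and 174 CPM among the shallowest, 178 and 211 CPM in the middle, and 166 and 168 CPM among the deepest. With Ly6a read after each cell was thinned to 50000 counts, 111 cells met the rule among those deep enough to thin.

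Lgr5, whose R-spondin receptor is the best known label of crypt stem cells, and Smoc2, coding for a secreted calcium-binding matrix protein of the stem cell signature, were higher in the class, and Prom1, coding for the membrane protein prominin-1, was not. Lgr5 summed to 58.96 CPM (55.3 to 62.9) in the class, against 17.5 CPM (16.004 to 19.2) in all other collagen cells (log2 ratio 1.69). Its level was 0 in the lowest cell, 9.68 CPM in the median cell and 725 CPM in the highest cell of the class, and the median was 0 and the highest value 985 CPM in the other collagen cells. The cells of the 2 groups overlapped over almost their whole range. Smoc2 summed to 119 CPM (113 to 124) against 32.3 CPM (30.2 to 34.5) (log2 ratio 1.84), with a median of 30.8 CPM and a highest value of 877 CPM per cell, against 0 and 412 CPM. Prom1 summed to 187 CPM (180.3 to 194) against 182 CPM (177 to 188) (log2 ratio 0.04), with medians of 158 and 145 CPM per cell. Of the 3 marker genes given for the class, Prom1 did not set it apart over all cells, although it was higher in the shallowest depth group.

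**Figure D2:**
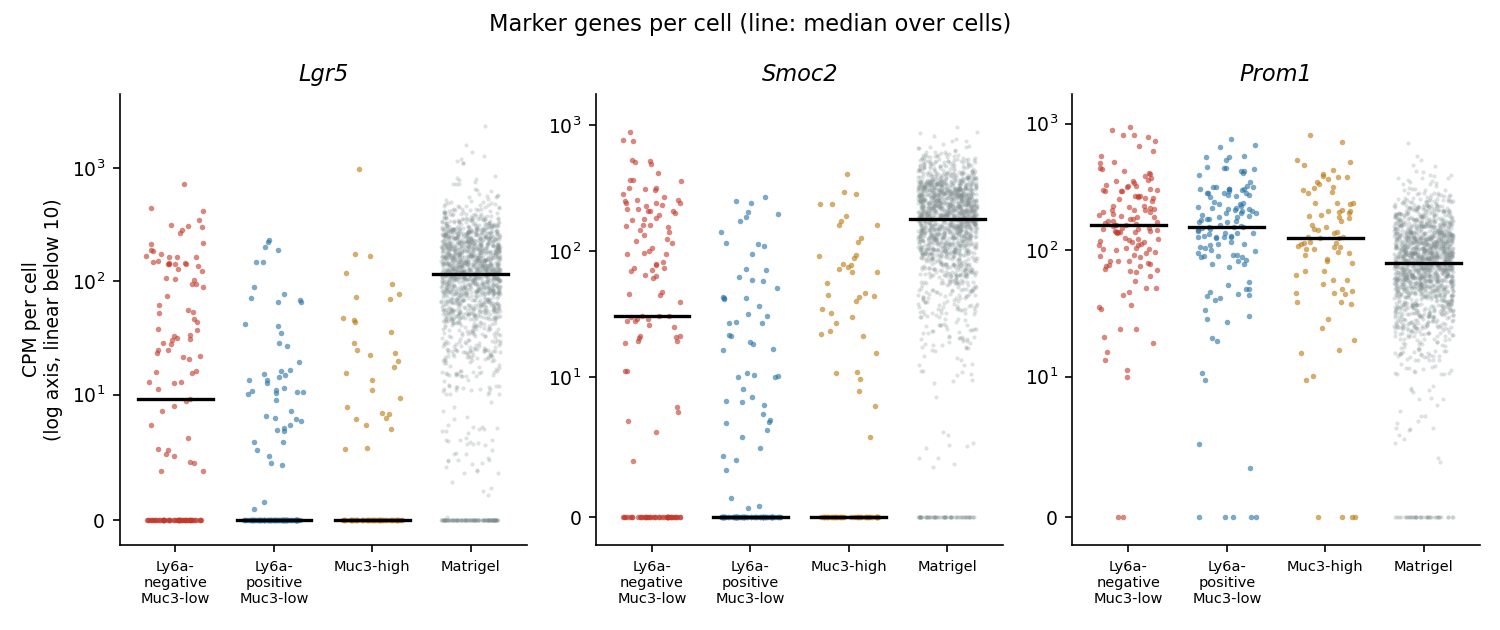
Each point is the level of Lgr5, Smoc2 or Prom1 in 1 cell (CPM, log axis, linear below 10) for 129 Ly6a-negative Muc3-low, 125 Ly6a-positive Muc3-low, 82 Muc3-high and 1599 Matrigel cells, and the line is the median over cells. Lgr5 and Smoc2 medians are above 0 in the class and at 0 in both other collagen classes; Prom1 medians are alike in the 3 collagen classes.

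Against the separate collagen classes, Lgr5 was at 58.96 CPM in the class, 16.5 CPM in Ly6a-positive Muc3-low cells and 19.5 CPM in Muc3-high cells, and Smoc2 at 119, 25.9 and 43.96 CPM in the same order. Among Muc3-high cells, the 56 with no Ly6a had 23.1 CPM of Lgr5 and 49.6 CPM of Smoc2, and the 26 with Ly6a had 12.1 and 32.7 CPM. Absence of Ly6a alone, with high Muc3, therefore went with lower levels of both genes than absence of Ly6a with low Muc3. The class did not reach the level of the budding organoids: Matrigel cells had 134 CPM of Lgr5 and 199 CPM of Smoc2. Prom1 ran the other way, at 187 CPM in the class and 88.96 CPM in Matrigel cells.

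Shares of cells were compared after thinning every cell to 50000 counts, which left out 18 cells of the class and 23 other collagen cells. Lgr5 was found in 48.6% (39.0 to 58.3%) of 111 cells of the class, 28.8% (22.4 to 35.9%) of 184 other collagen cells and 88.2% of Matrigel cells. As a level beside these, the 50 Matrigel cells highest in 7 enterocyte markers had Lgr5 in 28.0% (16.2 to 42.5%), at 14.5 CPM. The share in the other collagen cells was close to that level. Whether these 50 cells lack stem cell transcripts was not tested, so their shares are not a floor. The Lgr5 share in the class was higher than in those 50 cells, and these 2 intervals overlap. Smoc2 was found in 67.6% (58.0 to 76.1%) of the class and 38.6% (31.5 to 46.0%) of other collagen cells, but also in 64.0% (49.2 to 77.1%) of those 50 Matrigel cells, at 48.4 CPM. The Smoc2 share of the class was thus close to that of those 50 cells and above that of the other collagen cells. Its summed level was higher than in both. Median depths before thinning were 129613, 131865 and 203346 counts in the class, the other collagen cells and the 50 Matrigel cells. Both genes were found together in 43 of 111 cells of the class (38.7%) and in 30 of 184 other collagen cells (16.3%), and neither in 25 (22.5%) and 90 (48.9%). Without thinning, the Lgr5 shares were 60.5% in the class, 39.6% in the other collagen cells and 93.2% in Matrigel cells.

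A high level of Lgr5 belonged to a minority of the class. Lgr5 reached 100 CPM in 32 of its 129 cells (24.8%), in 10 of 207 other collagen cells (4.83%) and in 57.0% of Matrigel cells. Smoc2 reached 100 CPM in 46 cells of the class (35.7%), in 22 other collagen cells (10.6%) and in 74.6% of Matrigel cells.

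The class also held nearly all collagen cells with high levels of secretory cell genes. Summed over 15 Paneth, goblet and enteroendocrine markers, 13 collagen cells reached 5000 CPM, and 12 of them were in the class. The sums of these 12 ran from 9116 to 293813 CPM, and the next cell of the class had 3621 CPM. These cells differed among themselves. The 3 cells with the highest sums had 39658 to 106877 CPM of Lyz1, which codes for lysozyme, and 95083 to 171545 CPM of Defa24, an alpha-defensin gene of Paneth cells, together with 29158 to 39637 CPM of the goblet cell gene Tff3. Another cell joined Tff3 (42373 CPM) with Agr2 (30548 CPM), a goblet cell gene of mucin folding. The 4 cells with Chgb, coding for chromogranin B of hormone granules, had 29354 to 115142 CPM of it, and 1 of these 4 had 22064 CPM of the hormone gene Cck and 6900 CPM of Cpe, coding for a prohormone-processing enzyme. Chgb, Defa24, Agr2 and Cck were listed at 0 in every other collagen cell, and they are among 49 genes for which the table keeps no low counts. The rule reads 2 genes, so a collagen cell without Ly6a and with little Muc3 fell into this class whatever else it expressed. All 6 measured genes of the Paneth list, 7 of 8 of the goblet list and all 10 of the enteroendocrine list stood 2-fold or more above the other collagen cells, against 1, 0 and 0 without the secretory-rich and Olfm4 cells. Of all genes, 2.8% stood 2-fold or more above the other collagen cells. Summed over the 12 secretory-rich cells, Mki67 stood at 1.48 CPM and Lgr5 at 117 CPM. The Lgr5 value does not describe them all, as 4 of these cells had 150 to 448 CPM and 4 had 0.

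**Figure D3:**
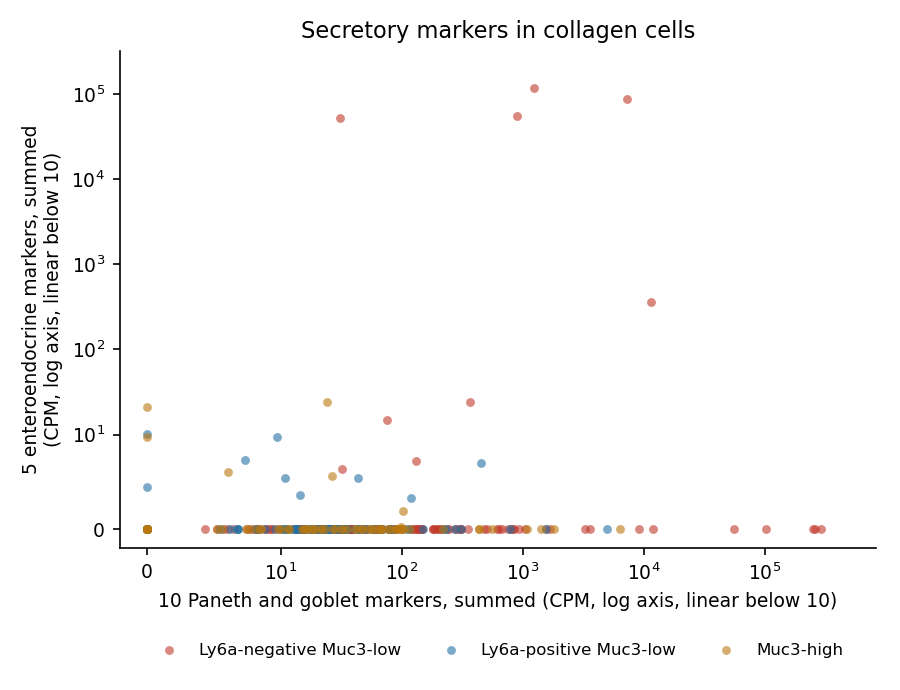
Each point is 1 of 336 collagen cells, by its summed level of 10 Paneth and goblet markers (x axis) and of 5 enteroendocrine markers (y axis) in CPM, on log axes that are linear below 10. The cells at the far right and the 4 cells at the top, with over 50000 CPM of enteroendocrine markers, belong to the Ly6a-negative Muc3-low class.

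Olfm4, another crypt stem cell gene, had a count in 3 collagen cells, all of the class, at 4236, 2758 and 1005 CPM. Their share of the collagen hashtag was 43.7%, 72.5% and 98.3%, against a median of 99.4% over the class. The first 2 of these cells and the secretory-rich cell with Cck (79.5%) were the 3 cells of the class under 80% for this share, against 0 other collagen cells, and 10 and 7 cells lay under 95%. Of the secretory-rich cells, the 2 with the highest sums had 92.6% and 93.6% for this share, and 1 with Chgb had 91.8%. Clu was at 0 in the 3 Olfm4 cells. Mt2, a metallothionein gene abundant in Matrigel cells (3424 CPM), stood at 2609, 7199 and 0 CPM in them. Low counts of Olfm4, Clu and Mt2 are absent from the deposited data, so a 0 for these genes can hide a low level. Whether cells of the other culture contributed to these profiles was not tested. Results are given below with all 129 cells and, in added values chosen after the data were seen, for the 114 cells that remain without the secretory-rich and the Olfm4 cells, against 206 other collagen cells. Lgr5 then had a log2 ratio of 1.48, Smoc2 of 1.91 and Prom1 of 0.09.

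Over all genes, 289 of 10337 were at least 2-fold higher in the class than in the other collagen cells (2.8%) and 120 were at least 2-fold lower (1.16%), counting genes at 5 CPM or more in either group; the rest lay within 2-fold. The median log2 ratio of all these genes was 0.10. Without the secretory-rich and Olfm4 cells, 140 were higher and 107 lower. With each cell given equal weight, 505 were higher, and after thinning 445 were. Leaving out those cells lowered the count of higher genes by more than that of lower genes.

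The 12 named genes with the largest ratios toward the class were Cpe, Tff3, Itln1, Ifitm3, Smoc2, Lgr5, H2ac24, H2ac23, Cps1, Slc12a2, Top2a and Aldh1b1. The first 2 rested on the secretory-rich cells: Cpe, at 50.2 CPM against 1.20 CPM, had a log2 ratio of 4.54 that was -0.36 without the secretory-rich and Olfm4 cells. Tff3, at 1603 against 72.6 CPM, had a log2 ratio of 4.45, or 0.17 without them. Itln1, coding for the lectin intelectin-1 of Paneth and goblet cells, stood at 783 against 55.6 CPM and had a log2 ratio of 3.79, or 1.57 without them. Its median per cell was 29.2 CPM in the class and 5.18 CPM in the other collagen cells. Ifitm3, an interferon-inducible membrane protein gene, stood at 83.2 against 12.98 CPM (log2 ratio 2.59, or 2.11 without them). Slc12a2, coding for the basolateral chloride cotransporter of crypt cells, reached 209 CPM (202 to 216) against 72.5 CPM (69.3 to 75.8), a log2 ratio of 1.51 that was 1.47 without them. Per cell its median was 113 CPM in the class and 33.3 CPM in the other collagen cells. Cps1, the carbamoyl phosphate synthetase of the urea cycle, stood at 118 against 40.5 CPM (log2 ratio 1.52), and the mitochondrial aldehyde dehydrogenase gene Aldh1b1 at 86.7 against 32.4 CPM (1.39). Both were far higher in Matrigel cells, at 659.8 and 454 CPM. The histone genes H2ac23 and H2ac24 share nearly all their counts as fractions between near-identical copies, so their levels are uncertain.

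The 12 named genes with the largest ratios in the other direction were Krt20, Il1rn, Plat, Emp1, Msln, Anxa10, Samd5, Sptssb, Anxa1, Lgals3, Mall and Rhoc, and all 12 had a log2 ratio of -1.38 or lower without the secretory-rich and Olfm4 cells. Krt20, a keratin gene of differentiated epithelium, stood at 20.4 CPM (18.3 to 22.8) against 159 CPM (154 to 164) (log2 ratio -2.90). It had a count in 26 of 129 cells of the class and in 92 of 207 others. Il1rn, coding for the interleukin-1 receptor antagonist, stood at 12.95 against 75.9 CPM (-2.46), and Plat, coding for tissue plasminogen activator, at 25.1 against 133 CPM (-2.35). Emp1, an epithelial membrane protein gene, stood at 55.5 against 215 CPM (-1.94), with a median per cell of 27.8 CPM in the class and 126 CPM in the others. These 4 genes were low in the class whether it was set against Ly6a-positive Muc3-low or Muc3-high cells, with log2 ratios of -1.35 and -4.03 for Krt20, -2.41 and -2.55 for Il1rn, -2.29 and -2.47 for Plat, and -1.96 and -1.88 for Emp1. They were lower still in Matrigel cells, at 8.03, 1.21, 6.17 and 22.1 CPM.

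In the crypt stem cell list, 8 of 16 measured genes were at least 2-fold higher in the class and 0 as far lower. Of all genes, 2.8% were at least 2-fold higher and 1.16% lower. The list had a median log2 ratio of 1.00 beside 0.10 over all genes. Olfm4 was 1 of the 8 and is listed at 0 in the other collagen cells. With its level there set to 3 counts over the group the list median was unchanged at 1.00. Low counts of Olfm4 are absent from the deposited data, so that setting is not an upper limit for its level there. Without the secretory-rich and Olfm4 cells, 6 members were higher and the median was 0.76. Ascl2, coding for a transcription factor of crypt stem cells, reached 5.29 CPM (4.22 to 6.55) in 14 cells of the class against 0.75 CPM (0.458 to 1.16) in 9 other cells, and 43.7 CPM in Matrigel cells. Axin2, a feedback gene of Wnt signalling, reached 22.97 CPM (20.7 to 25.5) in the class and 10.6 CPM (9.38 to 11.9) in the other collagen cells, and 163 CPM in Matrigel cells; its log2 ratio over the other collagen cells was 1.05, or 0.76 without those cells. Lrig1, an inhibitor of EGF receptors found in crypt stem cells, stood at 38.7 against 21.6 CPM, which is within 2-fold. In the list of Wnt targets and feedback genes, the 3 members of 10 that were at least 2-fold higher were Axin2, Lgr5 and Ascl2, all shared with the stem cell list, and the median was 0.58; 2 were higher without those cells. The class thus held higher levels of Lgr5, Smoc2, Ascl2 and Axin2 than its neighbours in collagen, each under the level of the Matrigel culture. Prom1 was at a similar level in those neighbours and was above its level in the Matrigel culture.

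Genes of fetal and regenerating epithelium were lower in the class. Over all genes, 1.16% were at least 2-fold lower than in the other collagen cells and 2.8% at least 2-fold higher. With Ly6a left out because it chose the cells, 11 of 14 genes with a measured level were 2-fold or more below, and 0 above, their level in the other collagen cells, with a median log2 ratio of -1.27, or -1.20 without the secretory-rich and Olfm4 cells. Msln, coding for mesothelin of the cell surface, reached 67.1 CPM (63.1 to 71.2) in 57 cells of the class against 254 CPM (248 to 259.8) in 150 other cells (log2 ratio -1.90). Its median per cell was 0 against 112 CPM. Anxa1, coding for annexin A1, stood at 48.97 CPM (45.6 to 52.5) against 161 CPM (156 to 166) (-1.69), and Clu, coding for clusterin, at 200.3 CPM (193 to 207) against 464 CPM (456 to 472) (-1.21). S100a6, a calcium-binding protein gene, was abundant in both, at 3464 against 7040.1 CPM (-1.02). Per cell, Clu ran from 0 through a median of 105 to 2121 CPM in the class and from 0 through 189 to 12348 CPM in the other collagen cells, and S100a6 had medians of 2876 and 6038 CPM. The groups overlapped for both genes. The low values of Clu, S100a6 and Lgals3 are absent from the table; with every zero set to the smallest kept value their log2 ratios were -1.04, -1.02 and -1.48.

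These lower levels were still above those of the Matrigel culture. Matrigel cells had 0.845 CPM of Msln, 4.76 CPM of Anxa1, 15.3 CPM of Clu and 169 CPM of S100a6. The order also differed between the 2 neighbouring classes. Clu was at 200.3 CPM in the class, 625 CPM in Ly6a-positive Muc3-low cells and 172 CPM in Muc3-high cells, and Anxa1 at 48.97, 212 and 67.8 CPM. Both genes were within 2-fold between the class and Muc3-high cells. Over Ly6a-positive Muc3-low cells, 12 of 15 list members were at least 2-fold lower, and over Muc3-high cells 4 of 13. The shares of all genes that were as far lower were 1.34% and 1.99% in the same order. Ly6a divided the class from Ly6a-positive Muc3-low cells and belongs to the same list, so this comparison is not independent of the rule. Those cells are 125 of the 207 other collagen cells, so the comparison with all other collagen cells is not independent of it either.

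**Figure D4:**
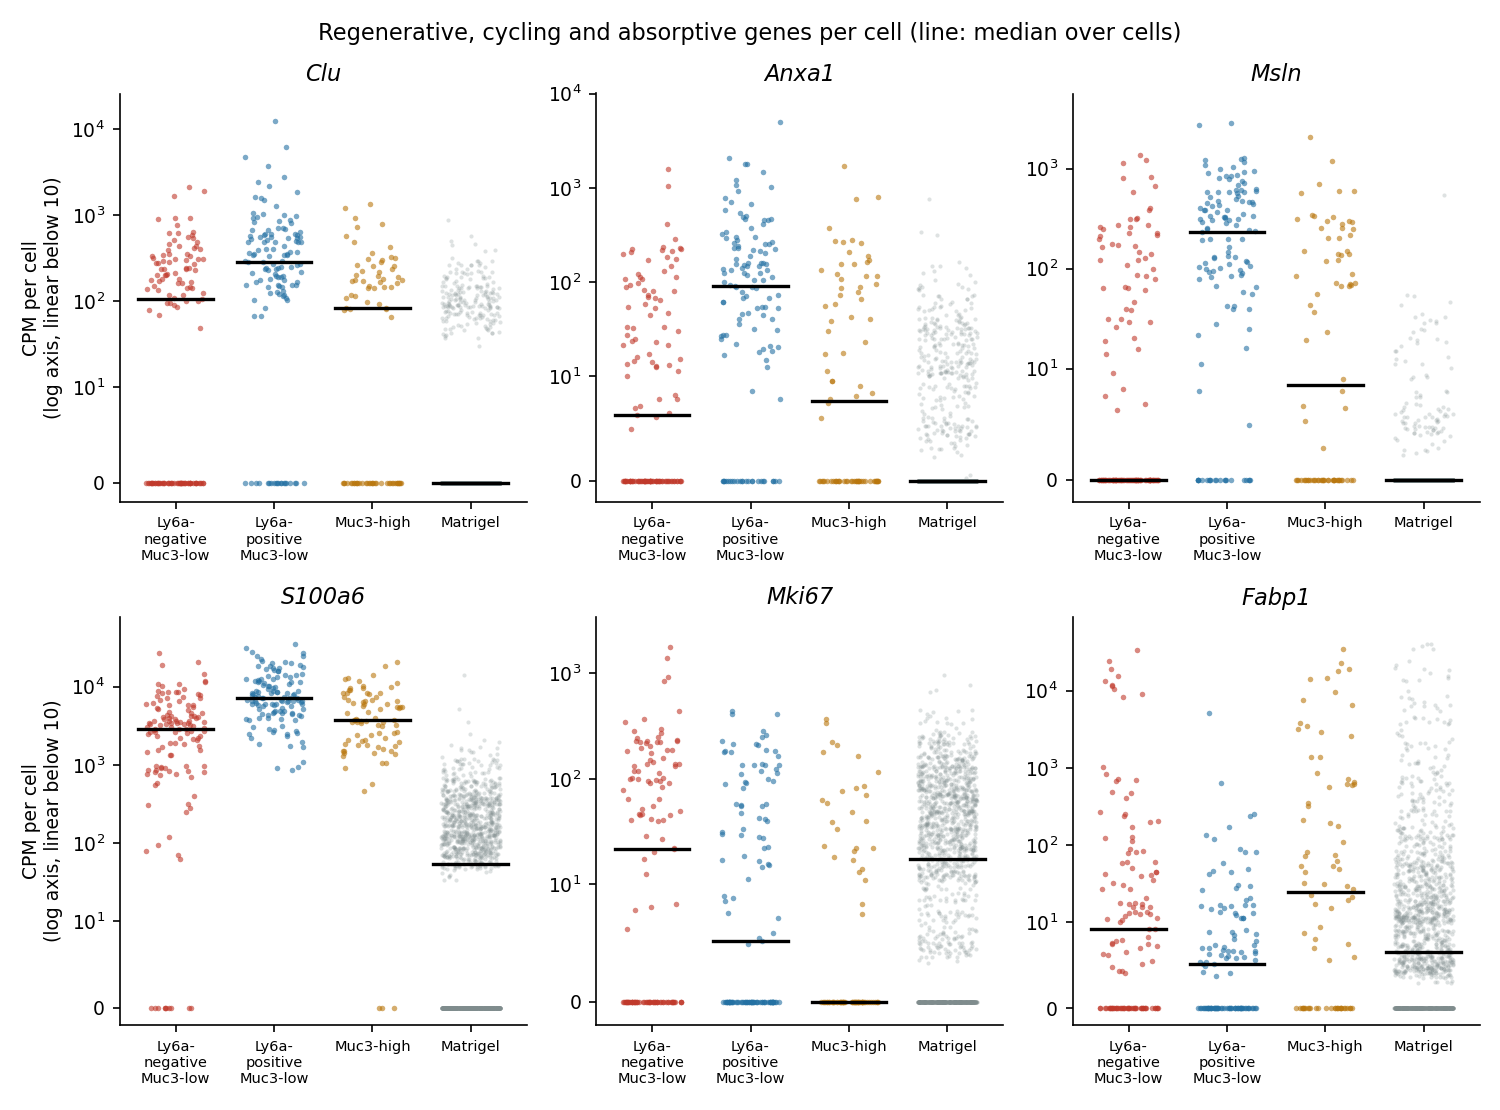
Each point is the level of Clu, Anxa1, Msln, S100a6, Mki67 or Fabp1 in 1 cell (CPM, log axis, linear below 10) for the 3 collagen classes and Matrigel cells, and the line is the median over cells. The class lies below Ly6a-positive Muc3-low cells for Clu, Anxa1, Msln and S100a6 and above Matrigel cells in S100a6, and its Fabp1 levels reached 1000 CPM in 11 cells, with a median of 9.20 CPM.

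Some keratin, annexin and S100 genes were lower too. Among all genes, 1.16% were at least 2-fold lower than in the other collagen cells and 2.8% at least 2-fold higher. In the keratin and squamous-type list, 6 of 11 genes stood 2-fold or more below the other collagen cells and none above (median -1.11), or 5 without the secretory-rich and Olfm4 cells. Krt7, a simple epithelial keratin gene, stood at 229 against 526 CPM and Krt23 at 93.4 against 235 CPM. Low values of Krt7 are absent from the deposited data. The major keratin genes Krt8 and Krt19 lay within 2-fold, at 1928 against 3593 CPM and 2007 against 3656 CPM; nearly all Krt8 values were fractions shared with similar genes. Ly6d, a surface antigen gene of squamous epithelium, had a count in 4 cells of the class and 19 others, at 2.77 against 27.8 CPM. Sprr1a, a cornified envelope gene, had a count in 14 cells of the class and 60 others. Of 25 annexin, S100 and galectin genes, 14 lay within 2-fold and 10 were at least 2-fold lower (9 without those cells), among them Lgals3, coding for galectin-3 (320.3 against 949 CPM), Anxa2 (628 against 1469 CPM) and S100a14 (34.8 against 97.1 CPM). Anxa6 was the 1 member at least 2-fold higher, at 5.10 against 1.53 CPM, was picked after its value was seen and did not count as higher without those cells.

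Most S phase and G2/M genes were at least 2-fold higher in the class than in Muc3-high cells, and few were against Ly6a-positive Muc3-low cells. The shares of all genes as far higher were 8.1% over Muc3-high and 3.25% over Ly6a-positive Muc3-low cells. Over all other collagen cells the share was 2.8%. Mki67, the gene of the proliferation antigen Ki-67, stood at 96.6 CPM (91.8 to 102) in the class, 57.7 CPM in Ly6a-positive Muc3-low cells, 27.7 CPM in Muc3-high cells and 45.7 CPM in Matrigel cells. It reached 100 CPM in 39 of 129 cells of the class (30.2%), 25 of 125 Ly6a-positive Muc3-low cells (20%) and 7 of 82 Muc3-high cells (8.54%). Among Matrigel cells, 14.9% reached 100 CPM of Mki67. After thinning to 50000 counts, Mki67 was found in 52.3% of the class and 52.9% of Matrigel cells. The sum of 5 cycling markers (Mki67, Top2a, Ccnb1, Mcm5 and Pcna) was lower in the class than in Matrigel cells, at 360 against 585 CPM. In the S phase list, 3 of 27 members were at least 2-fold higher over all other collagen cells (Pola1, Tipin and Ung), 0 over Ly6a-positive Muc3-low cells and 26 over Muc3-high cells, and none was at least 2-fold lower. Without the secretory-rich and Olfm4 cells, Pola1, Tipin and Ung were at log2 ratios of 0.73, 0.98 and 0.84 over the other collagen cells, under 2-fold, and 1 other S phase gene reached 2-fold. The list medians with all cells were 0.55, 0.12 and 2.10, beside 0.10, 0.08 and 0.13 over all genes. In the G2/M list, 5, 2 and 24 of 28 members were at least 2-fold higher in the same comparisons (5 over the other collagen cells without those cells as well), with medians of 0.65, 0.23 and 1.80. Top2a, the topoisomerase gene of dividing cells, stood at 56.3 CPM in the class, 25.7 CPM in Ly6a-positive Muc3-low cells and 9.49 CPM in Muc3-high cells. Kif11, coding for a spindle motor, stood at 15.3, 5.61 and 1.503 CPM, and Nusap1, coding for a spindle protein, at 19.9, 9.91 and 1.11 CPM. Cell cycle phase was not called.

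In the list of G1 cyclins and inhibitors, 1 of 12 genes was 2-fold or more above the other collagen cells, 2 were below and 9 lay within 2-fold, with a median log2 ratio of -0.06. Without the secretory-rich and Olfm4 cells, 0 were above and 1 below. Among all genes, with all cells kept, 2.8% were 2-fold or more above and 1.16% below. Cdkn1c, the gene of the inhibitor p57, was the higher one, at 26.6 against 6.57 CPM (log2 ratio 1.87, or 0.21 without those cells). Cdkn2a, the gene of p16 and p19Arf, stood at 6.42 CPM (5.23 to 7.79) in 27 cells of the class against 27.3 CPM (25.3 to 29.3) in 76 other cells (log2 ratio -1.93, or -1.80 without those cells), and its neighbour Cdkn2b at 40.98 against 85.8 CPM (-1.05, or -0.997). Cdkn1a, the gene of the inhibitor p21 and a p53 target, was within 2-fold over all other collagen cells (242 against 357 CPM) and over Ly6a-positive Muc3-low cells (259 CPM), and was lower than in Muc3-high cells (534 CPM, log2 ratio -1.14).

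Set against Ly6a-positive Muc3-low cells, the class had 337 of 10379 genes at least 2-fold higher (3.25%) and 139 lower by that factor (1.34%), or 183 and 130 without the secretory-rich and Olfm4 cells. After Cpe, Tff3 and Itln1, the largest named ratio was that of Fabp1, the liver-type fatty acid binding protein of enterocytes, at 1523 CPM (1504 to 1542) against 80.2 CPM (76.000 to 84.5) (log2 ratio 4.23). Adh6a, an alcohol dehydrogenase gene, stood at 58.2 against 6.97 CPM (2.89), and Pigr, the receptor that carries IgA across the epithelium, at 513 against 128 CPM (2.00). Of the enterocyte list, 7 of 15 members were at least 2-fold higher in the class, Fabp1, Sis and Slc5a1 among them, with a median of 0.98. Slc5a1, the glucose cotransporter gene of the brush border, stood at 41.7 against 11.9 CPM. Sis, coding for sucrase-isomaltase, had 11.7 CPM, and its log2 ratio over the other collagen cells, 1.80, was -0.92 without the secretory-rich and Olfm4 cells. Alpi, the brush border phosphatase, did not separate these classes, at 45.2 and 41.6 CPM. In the other direction Msln (-2.27), Anxa1 (-2.09) and Sptssb, a subunit gene of sphingolipid synthesis (-1.94), were among the leading genes.

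Set against Muc3-high cells, the class had 841 of 10387 genes at least 2-fold higher (8.1%) and 207 lower by that factor (1.99%). The higher genes included those of replication described above, with Smc2, a condensin gene, at 56.2 against 5.17 CPM. Of the enterocyte list, 1 of 15 genes was 2-fold or more above Muc3-high cells, 3 were below and 11 lay within 2-fold (median -0.48). Among the leading lower genes, Krt20 stood at 20.4 against 350.0 CPM (log2 ratio -4.03), Alpi at 45.2 against 239.9 CPM (-2.38) and Creb3l3, a transcription factor gene of lipid metabolism, at 8.75 against 65.8 CPM (-2.78). Fabp1 was high in both, at 1523 and 2283 CPM. Over all other collagen cells the enterocyte list was mixed, with 2 of 15 members 2-fold or more above, 2 as far below and a median of 0.17. Without the secretory-rich and Olfm4 cells, 0 were above and 3 below, with a median of -0.29. Muc3 split these 2 classes and is itself expressed in enterocytes, so the levels of other enterocyte genes are not independent of the rule. With the Muc3 threshold at 75 CPM, 542 genes were at least 2-fold higher than in Muc3-high cells, and at 300 CPM 1299 were.

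The Fabp1 level of the class rested on few cells. Fabp1 reached 1000 CPM in 11 of its 129 cells, in 1 of 125 Ly6a-positive Muc3-low cells and in 16 of 82 Muc3-high cells, and the median cell of the class had 9.20 CPM. These 11 cells averaged 14732 CPM of Fabp1 by summed counts, with 35.9 CPM of Lgr5, 7.56 CPM of Msln and 97.2 CPM of Krt20. The 32 cells with Lgr5 at 100 CPM or more had 172 CPM of Smoc2, 365 CPM of Slc12a2, 125 CPM of Mki67 and 8.90 CPM of Msln. These groups were not separate: 2 cells had both high Fabp1 and high Lgr5, 12 had both high Mki67 and high Lgr5, and 4 had both high Mki67 and high Fabp1. The remaining 57 cells, with none of these levels, less than 5000 CPM of summed secretory markers and no Olfm4, had 13.9 CPM of Lgr5, 101 CPM of Smoc2, 103 CPM of Msln, 4605 CPM of S100a6 and 24.9 CPM of Mki67. The Lgr5 and Mki67 values of cells chosen for these genes describe that choice. The 129 cells comprised cells with stem cell, absorptive and secretory transcripts beside the 57 cells left after those with high levels were set aside. Low Lgr5 in the 57 cells follows from that choice, and their Smoc2 level was above the 32.3 CPM of the other collagen cells.

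Other lists held fewer such genes. The shares of all genes were 2.8% at least 2-fold above the other collagen cells and 1.16% as far below. Of the YAP and TAZ targets, 2 of 16 stood 2-fold or more above the other collagen cells and 2 below, or 2 and 1 without the secretory-rich and Olfm4 cells (median -0.35). Ccn1, a secreted matricellular gene, was higher at 28.6 against 10.1 CPM. Areg, coding for the EGF receptor ligand amphiregulin (106 against 216 CPM), and F3, coding for tissue factor (30.9 against 81.3 CPM), were lower. Low values of Areg are absent from the deposited data, and it had a kept count in 32 cells of the class and 95 others, so its ratio is uncertain. Of the glutathione transferase and antioxidant list, 2 of 22 members, Gsta1 and Hmox1, were at least 2-fold lower, with Hmox1, coding for heme oxygenase, at 11.5 against 34.8 CPM; nearly all Gsta1 values were fractions, so its level is uncertain. All 22 glycolysis and hypoxia genes lay within 2-fold (median -0.33), among them Slc2a1, coding for a glucose transporter, at 88.9 against 144 CPM. Basement membrane genes were lower by 2-fold or more in 2 cases of 8, or 1 without the secretory-rich and Olfm4 cells. In the integrin, focal adhesion and actin list 2 of 30 were higher and 2 lower, of which the lower ones were Anxa2 and the tropomyosin gene Tpm2 (5.29 against 20.5 CPM).

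**Figure D5:**
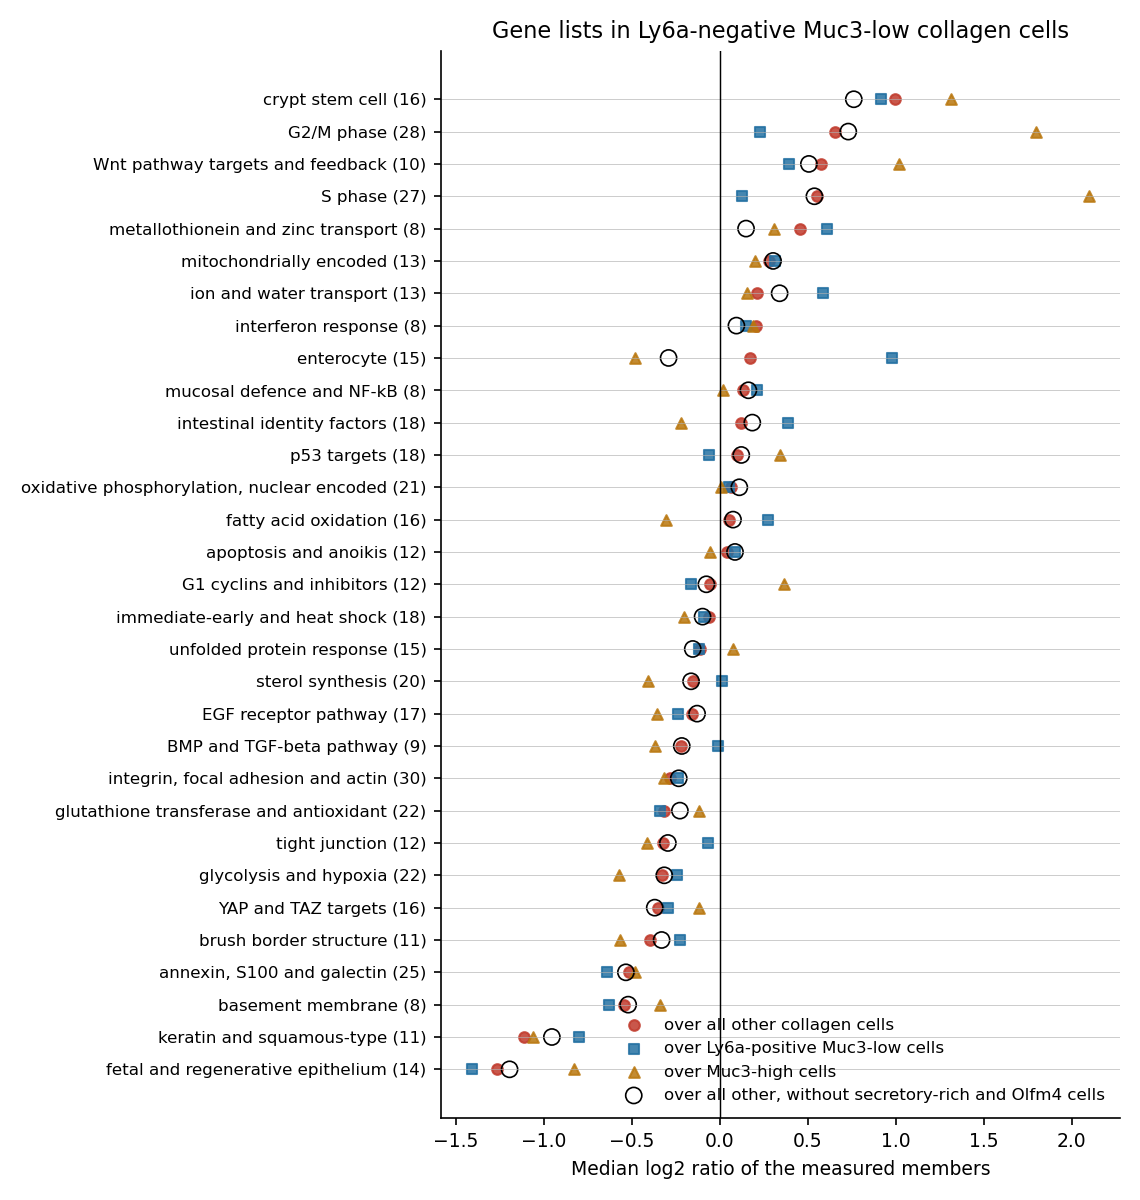
Each row is a gene list with at least 8 measured members (their number in brackets), and each symbol the median log2 ratio of the Ly6a-negative Muc3-low cells over all other collagen cells (circles), Ly6a-positive Muc3-low cells (squares) or Muc3-high cells (triangles); open circles leave out the secretory-rich and Olfm4 cells. Crypt stem cell genes lie at 1.00 and fetal and regenerative genes at -1.27 over all other collagen cells, and the S phase and G2/M lists lie at 2.10 and 1.80 over Muc3-high cells.

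Markers of other cell types and of RNA quality were read in the same cells. Of all genes, 2.8% were at least 2-fold higher than in the other collagen cells and 1.16% lower. Epcam, the epithelial antigen used for the hashtag, stood at 1469.8 against 1451 CPM. No member of the fibroblast, endothelial or tuft cell lists reached 5 CPM, and Dclk1, a tuft cell gene, stood at 1.49 against 1.38 CPM. All 13 mitochondrially encoded genes lay within 2-fold, with a median of 0.28, and so did the nuclear RNA Malat1 (1169.9 against 876 CPM). Of 18 stress-response genes, 1 differed by 2-fold or more, the heat shock gene Hspa1b, at 12.8 against 27.4 CPM, and 0 did without the secretory-rich and Olfm4 cells. Summed over 4 fibroblast, 3 endothelial, 3 immune and 4 tuft cell markers, the class had 0.957, 1.09, 0.719 and 6.72 CPM, against 0.665, 2.05, 0.729 and 4.49 CPM in the other collagen cells. Their part in the differences between the classes was not tested.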

How the data were processed

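One cDNA library and 1 hashtag library held both cultures, with 1 suspension per culture (BD Rhapsody beads, TAS-Seq amplification per the labels' protocols). The authors deposited expected counts per gene and cell (75.6% of values were whole to within 1e-06) and hashtag counts per barcode. Cutadapt 4.1, STARsolo 2.7.10a, R 4.2.1 and GRCm39 are named in the submitters' processing notes. The annotation, and whether copies of a molecule were collapsed, are not given in the sources used here. Because the reference at hand was of another build, no coordinates are given.

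Culture names came with the deposited table. The table held 2090 cells, of which 139 named doublets were left out and no doublet caller was run; cells needed 500 genes and at most 30% mitochondrial counts, which removed 0 collagen and 16 Matrigel cells. For 49 genes the table holds no low values. The smallest kept value of these ran from 3.33 to 183 counts.

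For each class, counts were added up over its cells and scaled to CPM; unrounded values were used, and thinning rounded them. Genes needed 5 CPM in either class to be counted. Named genes were the 12 largest ratios each way over all other collagen cells and the 6 largest each way over each separate class, at 50 CPM, 100 counts and 10% of cells in the higher class, up to 4 members per gene list at 10 CPM, and a fixed set of lineage markers. The 44 lists held 679 symbols, 11 of them not found. The class, markers and lists were chosen with earlier results of these data known. No clustering and no test was used, since no count model applies to 1 sample per group. Scripts used Python 3.11.15, numpy 2.4.6, scipy 1.17.1, pandas 2.3.3 and matplotlib 3.10.9, and were tested on simulated data. Alternatives changed the Muc3 threshold, the thinning, the pseudocount, the low-level filter, the hashtag share and the cells included. Some named genes are not reported here.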

Additional observations from a re-analysis of the deposited data

How the results depend on the processing

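No paired analysis was possible because each culture was 1 suspension and the results come from no test. The class held 110 to 148 cells over the alternatives to its rule. A minimum level changes how many genes are counted, so the counts of genes below have no common total. Genes at least 2-fold higher than in the other collagen cells numbered 505 with cells weighted equally, 445 after thinning, 128 with a pseudocount of 5 CPM, 516 without a minimum level and 74 at a 20 CPM minimum. Lower genes numbered 61 with that pseudocount, 200 without a minimum and 74 at 20 CPM. Over Ly6a-positive Muc3-low cells, higher genes numbered 598 with cells weighted equally, 151 with the pseudocount, 613 without a minimum and 99 at 20 CPM, and lower genes 71, 251 and 68 in the last 3 settings. Over Muc3-high cells, higher genes numbered 542 with Muc3 under 75 CPM, 1299 under 300 CPM, 417 with the pseudocount, 1342 without a minimum and 297 at 20 CPM, and lower genes 127, 347 and 132 in the last 3.

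The log2 ratio of Lgr5 was 1.504 with the pseudocount, 1.51 with a hashtag share of at least 95%, and 3.42 from per-cell medians. That of Smoc2 was 1.69 after thinning, 1.61 with Muc3 under 75 CPM, 1.73 with the pseudocount and 4.99 from per-cell medians. That of Prom1 was 0.21 with cells weighted equally, 0.15 with Muc3 under 75 CPM, -0.049 without cells carrying Sprr1a and 0.12 from per-cell medians. The Lgr5 share of the class was 61.8% after thinning to 100000 counts, 35.1% when 2 counts were required and 60.5% without thinning.

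Settings that left out cells were chosen after seeing the data. Without the secretory-rich cells, 173 genes were higher than in the other collagen cells and 209 than in Ly6a-positive Muc3-low cells, and without the Olfm4 cells too, 140 and 183, with Lgr5 at 1.48. Log2 ratios changed sign without the secretory-rich cells and without both sets for Cpe (-0.38 and -0.36), Muc2 (-0.25 and -0.23) and Sis (-0.95 and -0.92). Mt2 changed sign at a hashtag share of at least 95% (-1.99), without the Olfm4 cells (-2.07) and without both sets (-1.96). Of 60 other named genes at least 2-fold apart, 54 kept their direction and 29 stayed at least 2-fold apart under every setting. The cause of these changes was not tested beyond the cells or genes each setting leaves out. Depth limits Ly6a zeros and the levels of genes under 5 CPM.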

Other observations

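Several genes not yet set against all other collagen cells were also read in the Ly6a-negative Muc3-low cells. Pigr stood at 513 CPM (502 to 525) against 218 CPM (213 to 224), with a median per cell of 375 against 37.1 CPM, and its log2 ratio of 1.23 was 1.21 without the secretory-rich and Olfm4 cells. Aqp1, a water channel gene, stood at 14.9 against 4.50 CPM, and 3 of 13 ion and water transport genes were at least 2-fold higher with and without those cells. Cdx1, an intestinal identity factor, stood at 69.9 against 40.96 CPM, within 2-fold. The chemokine gene Cxcl16 was lower, at 50.7 against 118 CPM.

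Mt1, a metallothionein gene whose smallest kept value was 1 count, stood at 487 against 337 CPM (log2 ratio 0.53), with 0.15 without the secretory-rich and Olfm4 cells. The nuclear-encoded oxidative phosphorylation, sterol synthesis, unfolded protein response, Notch, MHC and tight junction lists held no member at least 2-fold apart over all other collagen cells, among 21, 20, 15, 6, 4 and 12 measured members. The lists of brush border structure, BMP and TGF-beta, and epithelial identity genes also held none, among 11, 9 and 7. For comparison, 2.8% of all genes were 2-fold or more above and 1.16% below. A single member was 2-fold or more above in each of the fatty acid oxidation (16 measured), p53 target (18), interferon (8), apoptosis (12) and metallothionein (8) lists, none below. For intestinal identity factors, 1 of 18 was above and 1 below, for the EGF receptor pathway 0 and 2 of 17, for mucosal defence 2 and 1 of 8, and for M cell genes 2 and 1 of 3. Without the secretory-rich and Olfm4 cells, the p53 and metallothionein lists held 0 genes above and 0 and 1 below, and those of identity factors, EGF receptor pathway and M cells held 0 above and 1 below each. The immune and the muscle, mesothelial and neural lists each had 1 measured gene, within 2-fold.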
